A study of Mus musculus with 19 samples.

Results

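Control common myeloid progenitors (CMPs) were compared with control LSK cells across all counted genes, to find which transcripts separate the populations when the lncRNA under study is not knocked down. The libraries are those that the labels give as controls: the 4 CMP libraries and the 4 LSK libraries that carried an shRNA against *Renilla* luciferase, a gene that mouse cells lack. These are 8 of the 19 RNA-seq libraries of a study of the lncRNA *Spehd*, and the labels write KLS for LSK. The other libraries carried 1 of 2 shRNAs against *Spehd*, named sh10 and sh20 here, with 3 CMP and 3 LSK libraries for sh10 and 2 and 3 for sh20.

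The donor cells of both groups were HSCs from female C57BL6J mice (C57BL6 in the labels), transduced with a doxycycline-inducible vector in which zsGreen reports shRNA expression. Recipients were sublethally irradiated C57BL/6-CD45.1 mice with the cKit-w41 allele, of both sexes and between 9 and 12 weeks old, and no competitor cells were added. The animals reconstituted for 10 weeks and were fed doxycycline for 6 days, so every control cell had been transplanted, transduced and exposed to the drug. Lineage-depleted femur marrow was sorted for zsGreen. LSK cells were lineage-negative, Sca1-positive and cKit-positive, and CMPs came from the Sca1-negative, cKit-positive fraction, divided by CD34 and Fcγ receptor. It is not stated that replicates A to D are separate animals, so p-values measure the spread between these libraries, which may in part be technical.

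The LSK gate holds the stem cells of the marrow together with multipotent progenitors, which keep several fates open and begin to express genes of single lineages at low levels. CMPs lie downstream and can give rise to red cells and platelets on one side and to granulocytes and monocytes on the other. GATA1 and its partners FOG1, KLF1, TAL1 and GFI1B drive the erythroid and megakaryocytic fates, while PU.1, the C/EBP factors, GFI1 and IRF8 drive the granulocytic and monocytic ones. Stem cell identity rests on factors such as HLF, MECOM, ERG, MEIS1 and the HOXA proteins.

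Reads counted on genes numbered 3647318 to 4967015 per library, and 18552 to 20173 genes had at least 1 count. By a two-sided exact permutation test the totals of the groups did not differ beyond their spread (p = 0.257). The first principal component of log2 CPM (counts divided by the scaled library total and brought to a common size) held 56.6% of the variance and separated every CMP library from every LSK library. The second held 10.1% and set CMP replicate D, at -46.1, apart from all others, which lay between -2.83 and 23.8. Log2 CPM correlated with r from 0.947 to 0.968 across genes within a group and from 0.875 to 0.903 between groups. LSK replicates B and D carried counts of mature neutrophil genes that the other libraries lacked, such as 176 and 120 counts of *S100a8* against 0 to 8 in the other 6 libraries. The counts of *Igkc*, an immunoglobulin light chain, were 469 in LSK replicate D and 1 to 18 elsewhere. The part of these transcripts' cells in the differences below was not tested.

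Several genes encode the antigens used in the sort, so their levels describe the gates and test nothing. *Ly6a*, which encodes Sca1, was at 3.16, 3.83, 6.08 and 7.58 CPM in CMPs and at 39.99, 49.0, 61.0 and 55.8 CPM in LSK cells (log2 fold change -3.30), so the transcript followed its antigen in every library. *Kit* was at 711, 799, 685 and 644 CPM in CMPs and 815, 858, 974 and 796 CPM in LSK cells (log2 fold change -0.28), and *Cd34* was at 341 ± 47.3 and 505 ± 42.5 CPM (SD, n = 4; -0.57). The Fcγ receptor genes *Fcgr3* and *Fcgr2b* differed by -2.03 and -2.02 on the log2 scale, and *Flt3* by -1.35, all lower in CMPs. No library went against its label. *Il7r* was close to absent, with 22, 3, 36 and 12 counts in CMPs and 7, 0, 3 and 11 in LSK cells. *Procr*, which was part of the gate for the donor HSCs and not of this one, was at 7.88 ± 4.58 CPM in CMPs and 57.3 ± 8.98 CPM in LSK cells, a log2 difference of -2.86 ± 0.35 (adjusted p = 0.00013).

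Of 12935 genes with enough counts to test, 2138 were higher in CMPs and 2323 were lower when edgeR's quasi-likelihood test was read at an FDR of 0.05. This is 16.5% of the genes tested in 1 direction and 18% in the other, and the median log2 fold change of all genes tested was -0.0225. A change of at least 2-fold was reached by 486 of the higher genes and by 939 of the lower ones, or 3.76% and 7.26% of the genes tested. The CPM values of the 4 CMP libraries lay wholly above those of the 4 LSK libraries for 1905 of the higher genes and wholly below them for 1937 of the lower genes. Over all genes tested, called or not, 17.4% lay wholly above and 16.8% wholly below. The counts of both directions shrank to 1299 and 1367 without LSK replicates B and D, which leaves 2 LSK libraries. In these sorted bulk samples, fewer cells of a type and less RNA per cell cannot be told apart.

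**Figure D1:**
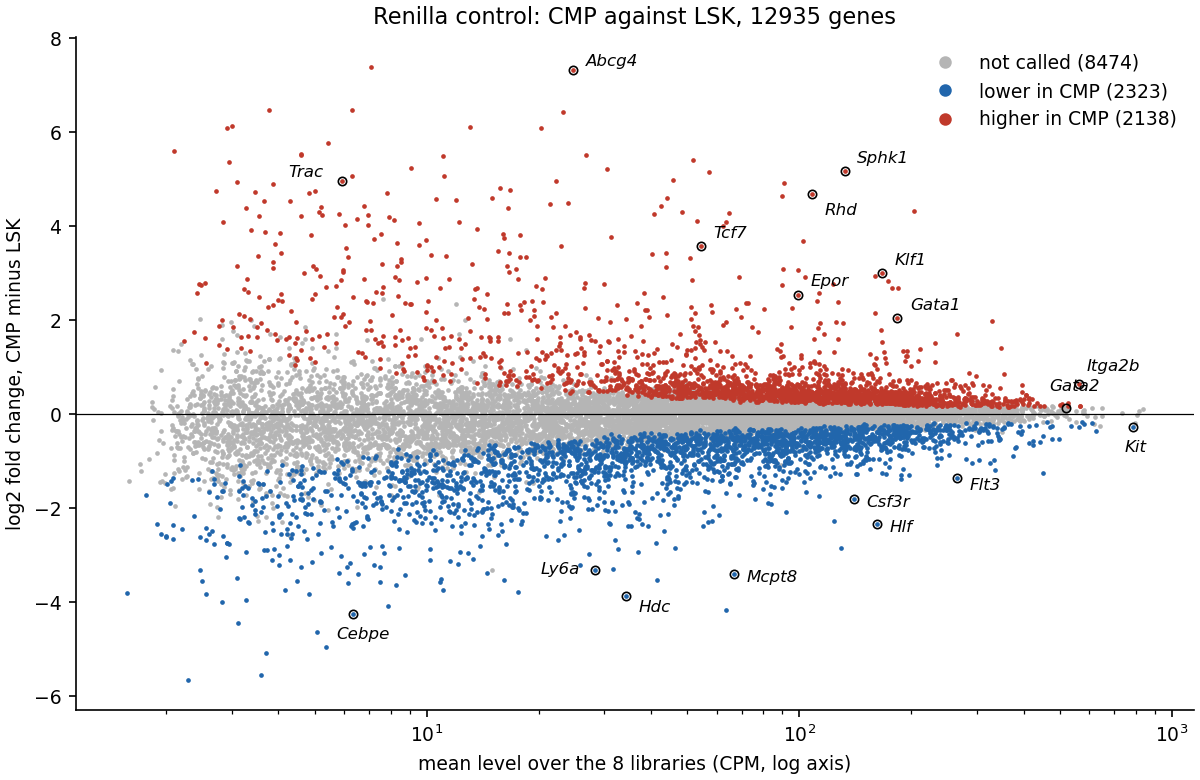
Each point is 1 of the 12935 genes tested, with its mean level over the 8 *Renilla* libraries in CPM on a log axis and its fitted log2 fold change, CMP minus LSK. Red genes (2138) were higher and blue genes (2323) lower in CMPs at an FDR under 0.05, and circles mark genes named in the text, from *Abcg4* at 7.32 to *Cebpe* at -4.26.

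Genes of the red cell lineage made up the clearest group above the LSK level. Of the 27 genes on an erythroid list, 26 could be tested, 24 were higher in CMPs and 0 lower, against 16.5% and 18% of all genes tested. All 24 were also without overlap between the libraries, where 17.4% of all genes tested lay wholly above. The median log2 fold change over the tested members was 2.71. The members not called were *Car2*, a carbonic anhydrase, at 0.16 ± 0.09 (SE), and *Nfe2*, a factor shared with megakaryocytes, at -0.0034 ± 0.07. The summed level of the list ran from 4955 to 6154 CPM in CMPs and from 1619.5 to 1956 CPM in LSK cells.

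*Klf1*, the erythroid Krüppel-like factor (ENSMUSG00000054191.8, chr8:84901928-84905291, plus strand, GRCm38), was read at 325, 308, 259 and 298 CPM in CMP replicates A to D and at 27.5, 42.4, 19.7 and 56.9 CPM in LSK replicates A to D. Every CMP library lay above every LSK library, and the difference was 8.03-fold (adjusted p = 5.9e-06). *Gata1* (ENSMUSG00000031162.14, chrX:7959260-7978071, minus strand), the master factor of the lineage, reached 312, 306, 280 and 283 CPM in the CMP replicates and 79.1, 67.8, 59.9 and 78.9 CPM in the LSK replicates. That is a log2 fold change of 2.04 ± 0.09 with an adjusted p of 2.2e-07. *Epor*, the erythropoietin receptor, stood at 169, 196, 162 and 149.7 CPM in CMPs and at 21.4, 29.3, 36.0 and 30.1 CPM in LSK cells, a log2 difference of 2.54 ± 0.15 (adjusted p = 9.6e-07). None of these values overlapped between the groups, and all of the transcripts were read in every LSK library. The counts of *Klf1* reached 0.841 per exonic base in the highest library, where the highest value of any gene of at least 500 bases was 0.994, in counts made after duplicate reads had been removed.

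The promoters of some of these genes are shown because GATA1 and GATA2 bind the letters AGATAA or close variants. The variants here are AGATAG with a different end, TGATAA with a different start, and TGATAG with both. *Gata1* rose in CMPs, and *Gata2*, given below, did not pass the threshold. The part of either factor in the changes was not tested. The 250 bases before the transcript start, 5′ to 3′ on the gene's strand, are from RefSeq on GRCm38.p6, and capitals mark the letters on the gene's strand or, read as their reverse complement, on the other one. *Klf1* lies at chr8:84901732-84901981, plus strand, *Epor* at chr9:21963577-21963826, minus strand, *Rhd* at chr4:134864286-134864535, plus strand, and *Trim10* at chr17:36869324-36869573, plus strand. *Ms4a2* (chr19:11623720-11623969, minus strand) and *Fcer1a* (chr1:173227230-173227479, minus strand), chains of the IgE receptor of mast cells and basophils, fell in CMPs and are shown for contrast.
Klf1: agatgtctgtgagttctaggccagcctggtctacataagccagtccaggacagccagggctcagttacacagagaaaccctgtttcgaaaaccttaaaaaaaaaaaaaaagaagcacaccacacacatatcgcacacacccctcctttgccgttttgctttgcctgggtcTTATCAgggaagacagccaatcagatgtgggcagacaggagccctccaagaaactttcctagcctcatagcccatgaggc
Epor: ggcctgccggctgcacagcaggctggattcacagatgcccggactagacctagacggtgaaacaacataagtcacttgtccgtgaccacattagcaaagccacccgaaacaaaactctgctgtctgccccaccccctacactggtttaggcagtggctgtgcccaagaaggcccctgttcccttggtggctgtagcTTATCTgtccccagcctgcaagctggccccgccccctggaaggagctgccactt
Rhd: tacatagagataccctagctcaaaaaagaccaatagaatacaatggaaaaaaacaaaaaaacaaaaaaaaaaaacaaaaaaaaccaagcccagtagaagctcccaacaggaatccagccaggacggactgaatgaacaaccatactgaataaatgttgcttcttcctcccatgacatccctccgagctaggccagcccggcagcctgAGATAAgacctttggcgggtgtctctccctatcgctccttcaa
Trim10: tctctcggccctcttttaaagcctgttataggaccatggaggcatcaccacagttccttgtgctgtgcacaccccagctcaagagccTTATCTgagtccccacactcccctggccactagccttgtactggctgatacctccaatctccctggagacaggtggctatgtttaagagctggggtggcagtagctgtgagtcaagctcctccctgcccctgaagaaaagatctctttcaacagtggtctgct
Ms4a2: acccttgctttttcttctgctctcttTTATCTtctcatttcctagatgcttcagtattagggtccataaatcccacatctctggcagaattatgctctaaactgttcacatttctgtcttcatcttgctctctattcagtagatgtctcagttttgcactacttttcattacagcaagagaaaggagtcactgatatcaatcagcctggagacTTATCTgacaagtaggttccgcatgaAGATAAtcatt
Fcer1a: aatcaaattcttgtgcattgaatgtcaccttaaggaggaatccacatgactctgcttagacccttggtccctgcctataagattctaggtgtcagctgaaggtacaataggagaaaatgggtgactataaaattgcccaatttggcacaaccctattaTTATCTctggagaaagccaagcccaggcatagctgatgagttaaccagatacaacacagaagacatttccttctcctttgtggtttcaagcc

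In the windows of 300 bases that RefSeq gives for 27025 genes, which run 50 bases past the start, 30.2% hold at least 1 of these letter runs on either strand. Runs that overlap were each counted as a match. The genes shown were picked from those with a match. Of tested genes with a window, a match is held by 10 of 19 on the erythroid list, 7 of 11 on the mast cell, basophil and eosinophil list, 6 of 14 on the megakaryocyte and platelet list, 1 of 19 on the granulocyte and monocyte precursor list and 1825 of 9659 in all (18.9%). A comparison of these shares is void, since only 9659 of 12935 tested genes and 19 of 26 erythroid genes have a window. A match is a string of letters and not a measured site.

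Ranked over genes averaging 50 counts or more whose groups did not overlap, the largest rise was that of *Abcg4*, a cholesterol transporter (ENSMUSG00000032131.16, chr9:44273188-44288615, minus strand). It had 213, 266, 176 and 148 counts in the CMP replicates and 0, 4, 0 and 1 in the LSK replicates, and its log2 fold change was 7.32 ± 0.48 (adjusted p = 2.0e-06). *Spon2*, a secreted matrix protein, had 178, 251, 192 and 129 counts in CMPs and 0, 6, 2 and 1 in LSK cells, a log2 fold change of 6.43 ± 0.47. Both genes were thus close to absent from LSK cells at this depth, and a fold change against a few counts is imprecise. *Sphk1*, which makes sphingosine-1-phosphate, had higher counts on both sides, 1121, 1410, 884 and 790 in CMPs and 8, 60, 9 and 52 in LSK cells, and a log2 fold change of 5.17 ± 0.39 (adjusted p = 5.3e-06).

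Of the 15 largest rises chosen in that way, 6 are on the erythroid list, which was chosen with earlier results of these data known. The overlap is therefore a description and not a test. The 6 are *Trim10* at 6.11, *Add2* at 5.41, *Sphk1*, *Cldn13* at 5.15, *Sptb* at 4.97 and *Rhd* at 4.69 on the log2 scale. *Add2* and *Sptb* encode adducin and spectrin of the red cell membrane skeleton, and *Rhd* a blood group antigen. The levels of *Rhd* were 229, 248, 193 and 162 CPM in the CMP replicates and 1.48, 15.3, 4.44 and 10.1 CPM in the LSK replicates, without overlap. The others were *Sh3tc2*, *Tmem56*, *Col5a1*, *Slc25a21*, *Slc38a5*, *Aldh1a7* and *Tspan8*, with log2 fold changes from 4.76 for *Tspan8* to 6.09 for *Sh3tc2*. *Slc38a5*, a glutamine transporter, had the smallest error among them, with 177 ± 34.1 CPM in CMPs and 5.67 ± 3.06 CPM in LSK cells (SD, n = 4 each).

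Other membrane proteins of red cells moved the same way. *Rhag*, the Rh-associated glycoprotein, rose by 4.65 ± 0.31 and *Ermap*, another blood group protein, by 4.33 ± 0.42 on the log2 scale. *Tfrc*, the transferrin receptor that takes up iron, was at 207 ± 20.6 CPM in CMPs and 54.1 ± 16.03 CPM in LSK cells (SD, n = 4), a log2 difference of 1.94. The LSK replicates were uneven for several of these genes. *Ermap* stood at 2.75, 26.8, 11.4 and 34.7 CPM in LSK replicates A to D, and *Rhag* at 2.54, 10.3, 5.27 and 9.01 CPM, with A and C below B and D in both.

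Heme synthesis followed, with 10 of 13 members higher and 1 lower in CMPs, against 16.5% and 18% of all genes tested. The median log2 fold change was 0.93. *Cpox*, an enzyme late in the pathway, was at 258 ± 52.5 CPM in CMPs and 73.9 ± 7.54 CPM in LSK cells (SD, n = 4), a difference of 3.48-fold with an adjusted p of 6.8e-06. *Slc25a38*, the mitochondrial glycine carrier, differed by 3.38-fold and *Fech*, which inserts the iron, by 2.18-fold. The first enzyme exists in 2 forms. The erythroid form *Alas2* had 14, 16, 69 and 40 counts in CMPs and 6, 13, 6 and 2 in LSK cells, a log2 fold change of 2.45 ± 0.61 (adjusted p = 0.0092, or 0.19 with all 19 libraries in 1 fit). The general form *Alas1* was at 101, 90.0, 89.8 and 93.5 CPM in CMPs and at 142, 154, 147 and 166 CPM in LSK cells, lower in every CMP library (log2 fold change -0.70 ± 0.08, adjusted p = 0.00012).

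Globins and other late red cell genes were present at low levels in both populations. Of 7 genes tested, 6 were higher in CMPs and 0 lower, against 16.5% and 18% of all genes tested, with a median of 2.45. *Hba-a1*, an alpha globin, had 33, 34, 48 and 38 counts in CMPs and 5, 7, 5 and 8 in LSK cells, and *Hbb-bs*, a beta globin, had 22, 29, 111 and 66 and 5, 10, 7 and 4. CMP replicates C and D held more *Hbb-bs* than A and B. The near-identical copies of the globin genes share reads, so the split between them is uncertain.

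Platelet genes had a smaller median rise than the erythroid list and more overlap between the groups, and the difference between the lists was not tested. Of 21 tested members of a megakaryocyte and platelet list, 15 were higher in CMPs and 1 lower, against 16.5% and 18% of all genes tested. The median log2 fold change was 0.83, but only 7 lay wholly above the LSK libraries, where 17.4% of all genes tested did. The number higher was 6 without LSK replicates B and D. *Itga2b*, the integrin CD41, was at 744, 549, 754 and 698 CPM in the CMP replicates and at 406, 395, 516 and 433 CPM in the LSK replicates, a log2 difference of 0.65 ± 0.11 (adjusted p = 0.00084). Its mean over the CMP libraries was 686 ± 94.9 CPM (SD, n = 4), and the groups did not overlap. *F2rl2*, a thrombin receptor, was at 103, 40.9, 209 and 127 CPM in CMPs and 27.1, 18.0, 24.7 and 23.9 CPM in LSK cells, a log2 difference of 2.36 ± 0.38.

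CMP replicate C was the highest CMP library for nearly all of the platelet genes that rose. *Vwf*, the von Willebrand factor of platelets and endothelium, was at 130.4, 121, 449 and 174 CPM in CMPs and at 56.1, 45.0, 169 and 94.2 CPM in LSK cells, and the groups overlapped (log2 fold change 1.29 ± 0.46, adjusted p = 0.048). Without CMP replicate C the log2 fold change was 0.70 and the adjusted p 0.15, and the latter was 0.077 to 0.12 without LSK replicate A, B or D. It was 0.1 by DESeq2, 0.098 when log2 total counts were a covariate and 0.052 under upper quartile scaling. *Ppbp*, a platelet chemokine, was at 20.5, 6.46, 74.1 and 17.4 CPM in CMPs and 2.75, 6.26, 10.5 and 4.39 CPM in LSK cells (log2 fold change 2.33 ± 0.65, adjusted p = 0.016, or 1.35 and 0.051 without CMP replicate C). Replicate C was also the highest CMP library for *Treml1* and *Gp1ba*, which differed by 2.11 and 1.38. Without LSK replicates B and D the calls of *Vwf*, *Ppbp* and *Gp1ba* were lost, with adjusted p of 0.26, 0.12 and 0.16. The member that fell was *Selp*, P-selectin, at -1.06 ± 0.37 (adjusted p = 0.045, or up to 0.13 without any of CMP replicates A, B and D and LSK replicates B to D, 0.11 by DESeq2, 0.086 with that covariate and 0.15 without LSK replicates B and D together).

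**Figure D2:**
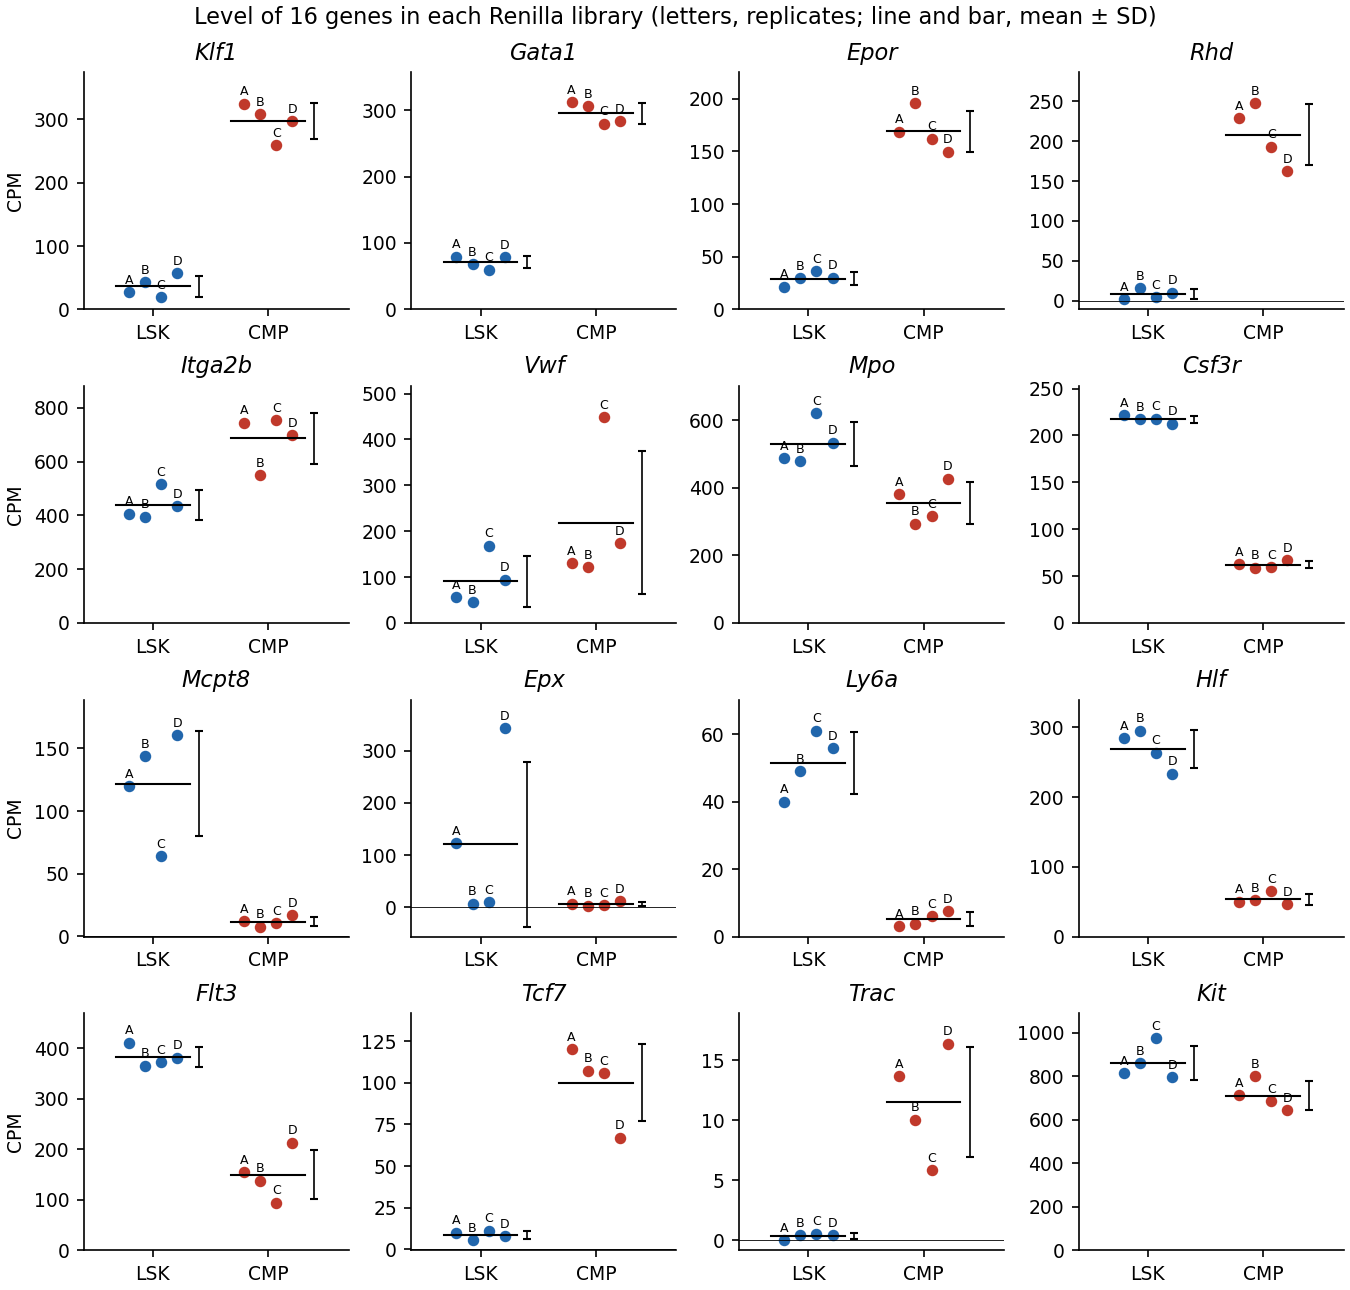
Levels of 16 genes in CPM on linear axes in each of the 4 LSK (blue) and 4 CMP (red) *Renilla* libraries, with the replicate letter above each point, the mean as a line and the SD as a bar beside it. Erythroid genes such as *Klf1* and *Rhd* separate the groups in every library, while CMP replicate C stands out for *Vwf* (130.4, 121, 449 and 174 CPM in A to D) and LSK replicates A and D for *Epx* (123, 6.86, 9.98 and 343 CPM).

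Genes of granulocyte and monocyte precursors were lower in CMPs than in LSK cells. Of 22 tested members, 18 were lower and 1 was higher, where 18% and 16.5% of all genes tested were. Among the lower members is *Fcgr3*, which encodes an antigen used in the sort and so tests nothing. The median log2 fold change was -1.55. The summed level of the list ran from 999 to 1435 CPM in CMPs and from 2238 to 2724 CPM in LSK cells. The member that rose was *Ccr2*, a chemokine receptor of monocytes, at 0.90 ± 0.30 (adjusted p = 0.035), a call that was lost without CMP replicate A or C or LSK replicate A, B or C (adjusted p up to 0.11), without LSK replicates B and D together (0.076) and with all 19 libraries in 1 fit (0.12).

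*Mpo*, the myeloperoxidase of primary granules, was still among the abundant transcripts of both groups, with 381, 293, 316 and 427 CPM in the CMP replicates and 488, 478, 621 and 533 CPM in the LSK replicates. The groups did not overlap, and the log2 difference was -0.58 ± 0.12 (adjusted p = 0.0028). *Elane*, neutrophil elastase, differed more, at 47.7, 28.5, 30.9 and 34.3 CPM in CMPs and 126, 143, 147 and 179 CPM in LSK cells (log2 fold change -2.08 ± 0.16, adjusted p = 6.8e-06). The proteases *Prtn3* and *Ctsg* lay between them at -1.43 and -1.59. *Ms4a3*, a marker of granulocyte-monocyte progenitors, was at 12.7 ± 4.10 CPM in CMPs and 65.9 ± 28.9 CPM in LSK cells (SD, n = 4), and *Mgst1* was at 5.97 ± 1.46 and 35.7 ± 4.17 CPM. *F13a1*, a monocyte transglutaminase and the last of the 15 largest falls at -2.92 ± 0.39, had 207, 153, 231 and 556 counts in the LSK replicates, where D was highest.

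The strongest falls were in genes of mast cells, basophils and eosinophils. Of 13 tested members of that list, 10 were lower in CMPs and 1 higher, against 18% and 16.5% of all genes tested. The median log2 fold change was -3.19, but only 6 of the lower genes were without overlap, where 16.8% of all genes tested lay wholly below. *Hdc*, which makes histamine (ENSMUSG00000027360.5, chr2:126593667-126619299, minus strand), led the 15 falls that were ranked in the same way, with 18, 10, 23 and 21 counts in CMPs and 267, 430, 91 and 398 in LSK cells (log2 fold change -3.86 ± 0.40, adjusted p = 4.6e-05). *Mcpt8*, a basophil protease, was at 11.9, 7.66, 10.5 and 16.6 CPM in CMPs and at 119.8, 144, 64.1 and 160.3 CPM in LSK cells, a log2 difference of -3.39 ± 0.30. *Prss34*, another basophil protease, was at 29.8, 26.8, 29.0 and 40.6 CPM in CMPs and at 229.8, 233, 193 and 257 CPM in LSK cells (log2 fold change -2.85 ± 0.14, adjusted p = 2.2e-07). LSK replicate C was the lowest LSK library for *Hdc* and *Mcpt8*, and also for *Ms4a2*, which had 220, 456, 36 and 370 counts in the LSK replicates.

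The eosinophil genes were less even among the LSK libraries than the basophil proteases. *Epx*, eosinophil peroxidase, had 580, 34, 36 and 1561 counts in the LSK replicates and 27, 14, 18 and 50 in the CMP replicates, so that A and D carried most of it and the groups overlapped. *Prg2*, the major basic protein of eosinophils, had 654, 68, 120 and 789 counts in the LSK replicates and 83, 40, 67 and 158 in the CMP replicates. Their log2 fold changes of -4.17 ± 1.08 and -2.07 ± 0.67 (adjusted p = 0.011 and 0.031) come with most of the counts in replicates A and D. Fitting the log2 library total as a covariate gave *Epx* an adjusted p of 0.098. The call of *Prg2* was lost without CMP replicate A, B or C or LSK replicate A or D (adjusted p up to 0.10), with that covariate (0.14) and with all 19 libraries in 1 fit (0.062). *Cpa3*, a mast cell protease, overlapped as well at -0.73 ± 0.22, a call lost without CMP replicate A, B or C or LSK replicate A, B or D (adjusted p up to 0.087) and with that covariate (0.13), and at -0.32 without LSK replicates B and D together (0.36). Of the members that did not fall, *Gata2*, which mast cells share with stem cells, was at 0.14 ± 0.06, *Gzmb*, a granzyme that cytotoxic lymphocytes also make, was at 0.53 ± 0.72, and neither passed. The third was *Il1rl1*, the IL-33 receptor, at 55.3 ± 9.54 CPM in CMPs and 13.4 ± 7.29 CPM in LSK cells (SD, n = 4), a rise of 2.02 ± 0.37 (adjusted p = 0.0016). Mature basophils and eosinophils express many of these genes as well as their progenitors do, the sort was for lineage-negative, cKit-positive cells, and which cells of the LSK gate held them was not tested. With log2 total counts as a covariate, 6 members were lower.

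The remaining large falls are of mixed kind. *Myof*, a membrane repair protein, had 16, 10, 4 and 8 counts in CMPs and 139, 135, 135 and 170 in LSK cells (log2 fold change -3.79 ± 0.35), and *Cyp11a1*, a steroid-making enzyme, had 4, 11, 9 and 18 and 117, 227, 45 and 161. *Col4a2*, a basement membrane collagen, had 12, 56, 15 and 26 counts in CMPs and 363, 435, 267 and 306 in LSK cells (log2 fold change -3.52 ± 0.34). *Col4a1*, which the annotation places opposite it, differed by -2.84 ± 0.24, and reads where exons of the pair overlap cannot be told apart. *Lrrn4*, *Bdh2*, *Rab7b*, *Epb41l3*, *Slc16a11* and *Tbkbp1* lay between -3.37 for *Lrrn4* and -2.93 for *Tbkbp1*. The lack of overlap among these genes is part of how they were picked.

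Genes of macrophages and dendritic cells were also lower, 6 of 10 tested, with 0 higher, against 18% and 16.5% of all genes tested. Their median was -1.28. *Vcam1*, an adhesion molecule of marrow macrophages and stromal cells, was at 20.3, 24.4, 30.1 and 5.14 CPM in CMPs and 81.7, 96.5, 97.9 and 110.3 CPM in LSK cells (log2 fold change -2.27 ± 0.34). *C1qa*, a complement component that macrophages make, was at 7.64, 9.09, 23.6 and 5.87 CPM in CMPs and 25.6, 30.7, 51.3 and 44.4 CPM in LSK cells (log2 fold change -1.70 ± 0.39). CMP replicate C was the highest CMP library for both, and for *Cd5l* at 1.84, 3.35, 14.7 and 3.18 CPM in A to D. Of the 16 genes on a mature neutrophil list only 4 could be tested. The summed level of that list ran from 71.1 to 89.5 CPM in CMPs and from 208 to 562 CPM in LSK cells, with *Ltf*, lactoferrin, at 5, 511, 6 and 64 counts in LSK replicates A to D.

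Of 21 tested members of a stem cell list, 11 were lower in CMPs, 1 was higher and 9 did not pass. Of all genes tested, 18% were lower and 16.5% higher. The median log2 fold change of the list was -0.67. Among the lower members is *Ly6a*, whose antigen Sca1 separates the gates, so its fall tests nothing. *Hlf*, a factor of long-term stem cells, was at 50.1, 52.2, 65.2 and 46.2 CPM in CMPs and 285, 295, 264 and 233 CPM in LSK cells, a log2 difference of -2.33 ± 0.12 (adjusted p = 2.8e-07). *Mecom* was at 35.3 ± 4.08 CPM in CMPs and 133 ± 17.3 CPM in LSK cells (SD, n = 4), a difference of -1.91 ± 0.13. *Fgd5*, a stem cell marker, had 15, 5, 1 and 7 counts in CMPs and 109, 93, 73 and 84 in LSK cells (log2 fold change -3.51 ± 0.49). The member that was higher was *Vwf*, given above with the platelet genes.

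Most of the listed Hox genes, which encode homeobox factors, were lower in CMPs where they could be tested. Of 31 Hox genes on a list only 8 had enough counts. Of these 6 were lower and 0 higher, against 18% and 16.5% of all genes tested, with a median of -1.34. *Hoxa9* was at 57.4, 54.8, 48.4 and 59.0 CPM in CMPs and at 139, 119, 107 and 105 CPM in LSK cells (log2 fold change -1.10 ± 0.12, adjusted p = 5.8e-05). *Hoxa10* differed by -1.60 ± 0.18 and *Hoxa7* by -1.09 ± 0.16. Most members of the HOXA cluster had too few counts to test, and *Hoxa4* had 12, 11, 19 and 5 counts in CMPs and 6, 1, 1 and 2 in LSK cells, the other way. *Hoxa3* had 5, 2, 0 and 4 counts in CMPs and 42, 47, 26 and 34 in LSK cells. Where antisense RNAs overlap the exons of *Hoxa3*, *Hoxa4* and *Hoxa7*, the counting cannot separate their reads.

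**Figure D3:**
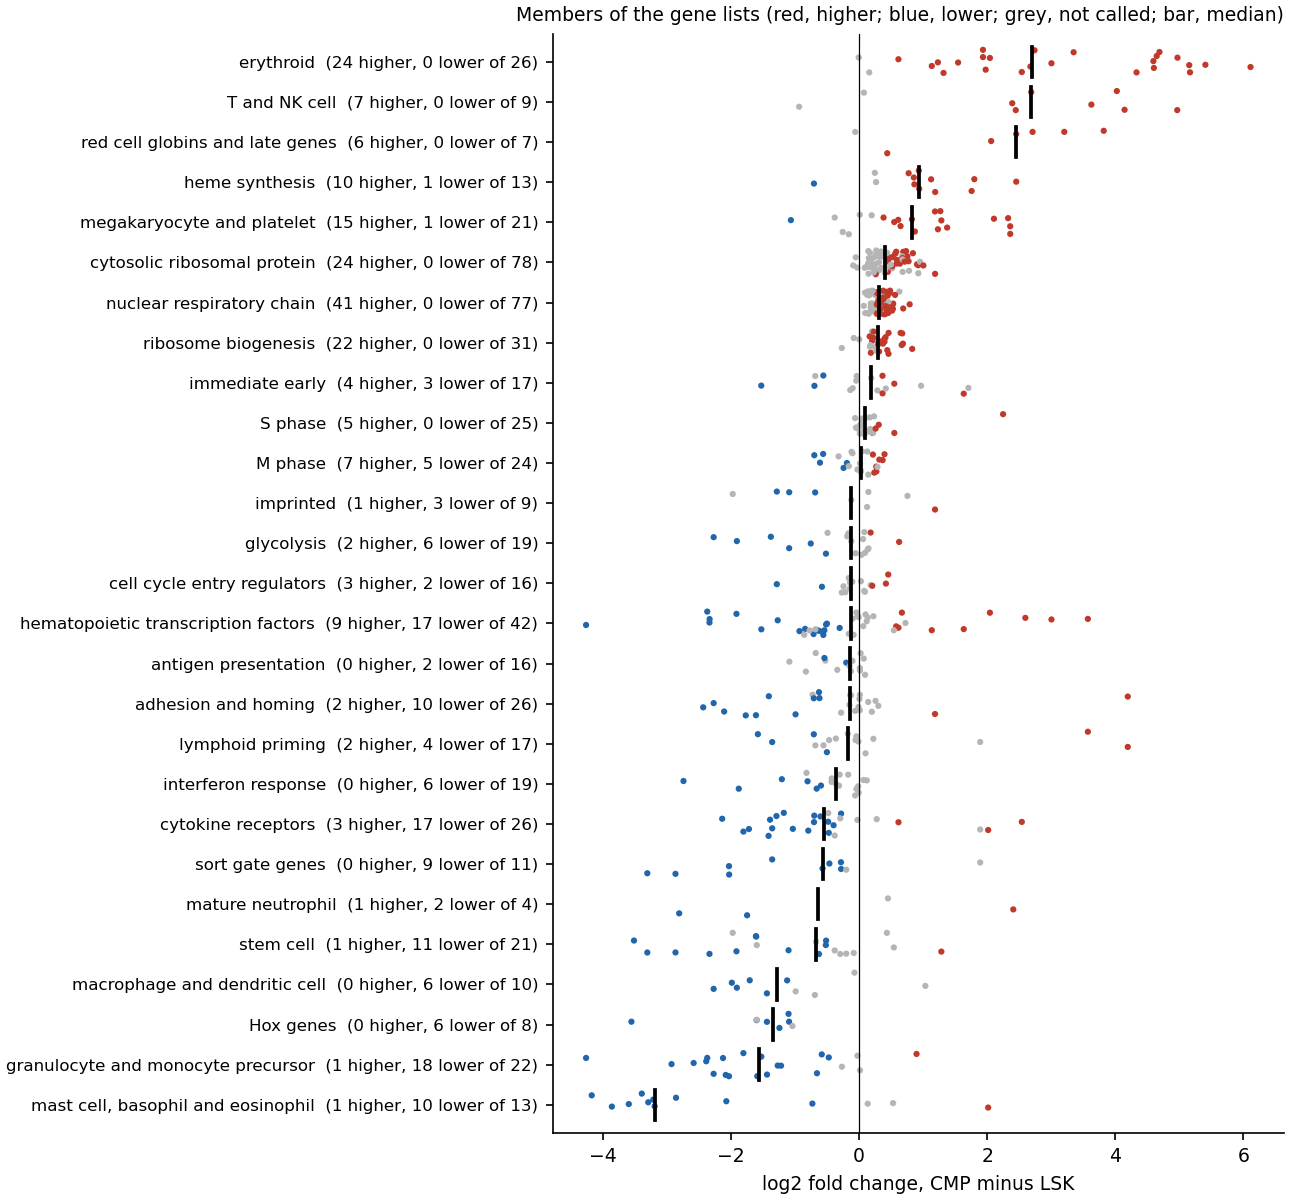
Each point is a tested member of a gene list, placed by its log2 fold change, CMP minus LSK, and coloured red if higher in CMPs, blue if lower and grey if not called, with the list median as a black bar. The lists are ordered by median, from -3.19 for mast cell, basophil and eosinophil genes to 2.71 for erythroid genes, and points are spread vertically only to be visible.

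Among 45 transcription factors of hematopoiesis, 42 were tested, 9 were higher and 17 lower in CMPs, where 16.5% and 18% of all genes tested were, and the median was -0.13. The higher ones were *Tcf7*, *Klf1*, *Id3*, *Gata1*, *Klf2*, *Gfi1b*, *Id2*, *Zfpm1* and *Tal1*. *Gfi1b*, a repressor that GATA1 needs in red cells and platelets, was at 318, 273, 278 and 273 CPM in CMPs and 139, 127, 125 and 128 CPM in LSK cells (log2 fold change 1.14 ± 0.07, adjusted p = 1.8e-06). *Zfpm1*, which encodes FOG1, differed by 0.62 ± 0.09 and *Tal1* by 0.58 ± 0.11. *Id2* differed by 0.67 ± 0.19 (adjusted p = 0.016). That p became 0.051 without CMP replicate A, 0.071 with log2 total counts as a covariate and 0.14 without LSK replicates B and D. *Gata2* was at 557, 506, 549 and 565 CPM in CMPs and at 483, 455, 527 and 514 CPM in LSK cells, with overlap, and its difference of 0.14 ± 0.06 did not pass the threshold (adjusted p = 0.10). The difference between the changes of *Gata1* and *Gata2* was not tested.

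The factors of the granulocytic and monocytic fates were lower. *Cebpe*, needed for late granulocytes, had 1, 1, 6 and 2 counts in CMPs and 70, 57, 10 and 88 in LSK cells (log2 fold change -4.26 ± 0.68). *Gfi1* was at 8.69, 15.1, 7.48 and 13.7 CPM in CMPs and 66.9, 53.9, 46.3 and 65.2 CPM in LSK cells, a difference of -2.37 ± 0.23 (adjusted p = 3.0e-05). *Cebpa* fell to 13.7 ± 4.64 CPM from 39.2 ± 14.8 CPM (SD, n = 4; -1.52 ± 0.30), *Irf8* to 83.4 ± 31.8 from 201 ± 53.3 CPM (-1.27 ± 0.26), and *Spi1*, which encodes PU.1, to 116 ± 30.6 from 183 ± 11.4 CPM (-0.65 ± 0.15). *Spi1* thus moved least of the 5, and its CMP replicates ran from 91.2 to 157 CPM.

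Factors associated with stem cells split. *Erg* was at 10.2 ± 2.14 CPM in CMPs and 51.7 ± 13.4 CPM in LSK cells (SD, n = 4), a log2 difference of -2.33 ± 0.23, while its relative *Fli1* was at -0.16 ± 0.13 and did not pass (adjusted p = 0.39). *Lyl1* was lower, at -0.93 ± 0.19, while its relative *Tal1* rose. *Meis1* (-0.51 ± 0.08), *Sox4* (-0.54 ± 0.09) and *Etv6* (-0.62 ± 0.11) were lower by less than 2-fold, and *Runx1* was lower by the least of the 17, at -0.30 ± 0.10 (adjusted p = 0.037, or up to 0.13 without any of CMP replicates A, B and D and LSK replicates A, B and D). That call was also lost without LSK replicates B and D together (0.27), with all 19 libraries in 1 fit (0.16), with log2 total counts as a covariate (0.1) and with the replicate block (0.053). *Lmo2*, *Mycn*, *Myc*, *Myb*, *Nfe2*, *Mef2c* and *Runx3* all lay between -0.16 and 0.14, the log2 fold changes of *Fli1* and *Gata2*, and did not pass.

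**Figure D4:**
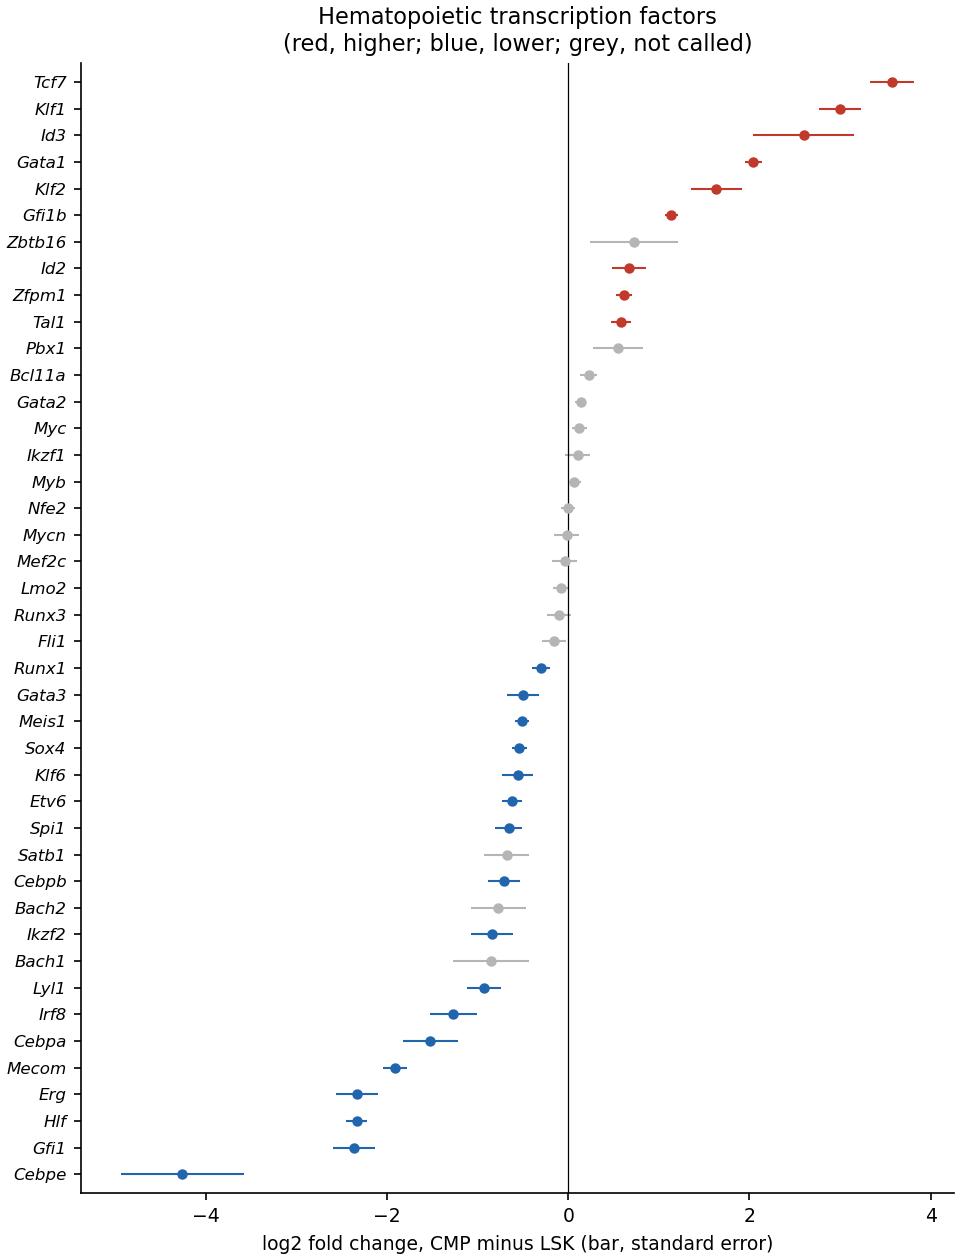
Log2 fold change, CMP minus LSK, of the 42 tested hematopoietic transcription factors, with the standard error of the edgeR fit as a bar. Red factors were higher and blue ones lower at an FDR under 0.05, and the order runs from *Cebpe* at -4.26 to *Tcf7* at 3.57.

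Transcripts of T and NK cells had a higher summed level in every CMP library than in any LSK library. Of 9 tested genes of the list 7 were higher and 0 lower, against 16.5% and 18% of all genes tested, at a median of 2.69 on the log2 scale. The summed level ran from 264 to 361 CPM in CMPs and from 144 to 182 CPM in LSK cells. *Trac*, the constant region of the T cell receptor alpha chain, had 52, 42, 25 and 67 counts in the CMP replicates and 0, 2, 2 and 2 in the LSK replicates (log2 fold change 4.97 ± 0.59, adjusted p = 0.00011). *Cd3e*, a chain of the same receptor, had 52, 35, 47 and 67 counts in CMPs and 0, 0, 0 and 12 in LSK cells. *Ncr1*, an NK cell receptor, was at 45.9 ± 18.9 CPM in CMPs and 6.97 ± 6.15 CPM in LSK cells (SD, n = 4). These are genes of mature lymphocytes, the sort was for lineage-negative cells, and how many cells carried them cannot be read from bulk RNA.

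*Tcf7*, the largest rise among the transcription factors, is a T cell factor that early progenitors also express. It was at 120.4, 107, 106 and 67.0 CPM in CMPs and at 9.95, 5.25, 11.1 and 7.69 CPM in LSK cells (log2 fold change 3.57 ± 0.24, adjusted p = 2.4e-06). *Ccr9*, a thymus homing receptor, had 68, 33, 108 and 37 counts in CMPs and 3, 5, 5 and 1 in LSK cells, and *Lck*, a T cell kinase, was at 96.9 ± 19.5 CPM in CMPs and 45.8 ± 8.26 CPM in LSK cells (SD, n = 4; 1.08 ± 0.17). *Id3* and *Klf2* rose by 2.60 ± 0.55 and 1.64 ± 0.28, and the adjusted p of *Id3* was 0.056 without LSK replicates B and D. These 5 genes moved with the T and NK cell list, whose part in their rise was not tested. *Tcf7* and *Ccr9* were the only higher members of 17 tested lymphoid priming genes, of which 4 were lower, with a median of -0.17, where 16.5% and 18% of all genes tested were. Among the lower ones is *Flt3*, which encodes an antigen used in the sort. *Notch1*, a receptor that starts T cell fate, was lower in CMPs, at -1.58 ± 0.23, and *Dntt*, which edits antigen receptor joins, was at -0.01 ± 0.16 (adjusted p = 0.98).

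Of 26 cytokine receptor genes tested, 17 were lower and 3 higher in CMPs, where 18% and 16.5% of all genes tested were, with a median of -0.54. *Csf3r*, the G-CSF receptor, was at 63.0, 59.1, 59.8 and 67.3 CPM in CMPs and at 222, 217, 218 and 213 CPM in LSK cells (log2 fold change -1.80 ± 0.08, adjusted p = 2.2e-07). *Csf2rb*, a shared chain of the IL-3, IL-5 and GM-CSF receptors, was at 22.6 ± 3.52 and 99.5 ± 10.9 CPM (SD, n = 4; -2.13 ± 0.15). The higher ones were *Epor* and *Il1rl1*, given above, and *Ifngr1*, an interferon gamma receptor chain, at 0.62 ± 0.06. The number of lower genes was 11 when all 19 libraries were fitted together.

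In lists for respiration and for ribosomes every call was a rise, and most were small. Of 77 nuclear genes of the respiratory chain and ATP synthase, 41 were higher in CMPs and 0 lower, and 52 lay without overlap above the LSK libraries, where 16.5% of all genes tested were higher and 17.4% lay so, with a median log2 fold change of 0.32. *Ndufs1*, a complex I subunit, was at 298, 258, 261 and 242 CPM in CMPs and 179, 182, 182 and 190.4 CPM in LSK cells (log2 fold change 0.53 ± 0.07, adjusted p = 0.00029). Of 78 cytosolic ribosomal protein genes 24 were higher and 0 lower, with a median of 0.41, and of 31 ribosome biogenesis genes 22 and 0, with a median of 0.30, against the same 16.5% of all genes tested. *Bop1*, which processes ribosomal RNA, was at 269 ± 10.6 CPM in CMPs and 171 ± 13.4 CPM in LSK cells (SD, n = 4; 0.65 ± 0.07).

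Of 19 glycolysis genes 2 were higher and 6 lower, where 34.5% of all genes tested were called in either direction. Among the hexokinases *Hk3*, the form of myeloid cells, was at 34.0, 42.4, 43.7 and 49.9 CPM in CMPs and 197, 207, 191 and 224 CPM in LSK cells (log2 fold change -2.27 ± 0.11, adjusted p = 2.9e-07), *Hk2* was lower, at -1.37, and *Hk1*, the form of red cells, was at 0.18 (adjusted p = 0.032). The call of *Hk1* was lost without CMP replicate A or B or LSK replicate A, B or D (adjusted p up to 0.078), under upper quartile scaling (0.07), with no filter (0.077), with log2 total counts as a covariate (0.059), with the replicate block (0.05) and without LSK replicates B and D together (0.26). *Ldhb*, a lactate dehydrogenase chain, was at 14.7 ± 3.18 CPM in CMPs and 55.2 ± 6.77 CPM in LSK cells (SD, n = 4; -1.90 ± 0.18). Of 25 S phase genes 5 were higher and 0 lower, with a median of 0.10, and of 24 M phase genes 7 were higher and 5 lower, with a median of 0.03, where 34.5% of all genes tested were called in either direction.

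Individual cell cycle genes stood out from these medians. *Ccne1*, the cyclin that starts DNA replication, was at 169, 153, 105 and 105 CPM in CMPs and at 26.2, 28.05, 18.0 and 38.9 CPM in LSK cells (log2 fold change 2.25 ± 0.22, adjusted p = 3.3e-05). *Cdkn1c*, the p57 inhibitor that marks quiescent stem cells, was at 15.2 ± 3.15 CPM in CMPs and 37.1 ± 7.12 CPM in LSK cells (SD, n = 4; -1.28 ± 0.21). *Mki67*, a proliferation marker, was lower in CMPs, at -0.56, with overlap (adjusted p = 0.011, or 0.19 with all 19 libraries in 1 fit). Of 19 interferon response genes 6 were lower and 0 higher, where 18% of all genes tested were lower, 16.5% higher and 34.5% either. *Iigp1*, the called member that moved most, was at 20.0, 4.79, 15.7 and 2.69 CPM in CMPs and 67.5, 72.8, 113 and 34.0 CPM in LSK cells (log2 fold change -2.74 ± 0.50). Of 17 immediate early genes 7 were called in either direction and of 16 antigen presentation genes 2 were, where 34.5% of all genes tested were called.

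Of 1103 lncRNAs tested, 81 were higher and 123 lower in CMPs, smaller shares than the 16.5% and 18% of all genes tested. The shares were not matched for expression level, and their difference was not tested. *Pvt1*, an lncRNA beside *Myc* (ENSMUSG00000097039.8, chr15:62037986-62378096, plus strand), was at 34.0, 34.5, 27.3 and 22.3 CPM in CMPs and at 6.35, 6.66, 4.99 and 7.25 CPM in LSK cells, a log2 difference of 2.21 ± 0.23 (adjusted p = 5.0e-05), while *Myc* itself was at 0.12 ± 0.08 (adjusted p = 0.28). *Gm15915*, a lincRNA (chr10:93674218-93683322, minus strand), was at 95.6, 111, 72.9 and 89.8 CPM in CMPs and 2.96, 10.1, 4.44 and 18.9 CPM in LSK cells (log2 fold change 3.32 ± 0.40). *C030037D09Rik* (chr11:88718645-88728893, plus strand) was the largest fall among lncRNAs averaging 50 counts or more, at 5.59 ± 1.46 and 22.7 ± 5.78 CPM (SD, n = 4; -2.01 ± 0.28), and *Gm19590* fell to 39.4 ± 6.28 from 128 ± 20.7 CPM (-1.69 ± 0.15). *2810468N07Rik*, opposite *Sox8*, had 6, 1, 2 and 14 counts in CMPs and 27, 40, 19 and 33 in LSK cells (log2 fold change -2.19 ± 0.60, adjusted p = 0.015). *F630028O10Rik* was also lower, at -1.56 ± 0.32 (adjusted p = 0.0033). Without LSK replicates B and D the adjusted p was 0.14 for *2810468N07Rik* and 0.08 for *F630028O10Rik*, and both calls were lost.

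The largest rise among these lncRNAs, *Gm45774* at 4.09 ± 0.37, lies opposite *Mt2*, a metallothionein that rose by 4.46 ± 0.33. Where exons of the pair overlap, reads cannot be told apart in libraries that do not mark strand. The same holds for the class. Of 100 antisense lncRNAs called, 93 lie opposite a tested gene, and in 86 cases that gene was called in the same direction. *1700006J14Rik*, opposite *Hmga2*, was an exception, with 2.79 ± 0.39 against -0.71 ± 0.41 for *Hmga2*, which did not pass (adjusted p = 0.21).

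The libraries with shRNAs against *Spehd* offer the same comparison in cells that share no library with the controls. Their values come from 1 fit of all 19 libraries and those of the controls, where not said otherwise, from the fit of the 8. With sh10, 92.3% of the genes higher and 86.3% of the genes lower in control CMPs moved in the same direction, against 71.9% of all genes tested. With sh20 the shares were 88.7% and 86.6%, against 70.2%. Genes are not independent replicates, and across 12935 of them the fold changes correlated with those of the controls with r = 0.733 for sh10 and 0.612 for sh20. The erythroid list had medians of 2.75 with sh10 and 2.47 with sh20, the granulocyte and monocyte precursor list -0.96 and -1.25, and the mast cell, basophil and eosinophil list -2.12 and -3.22. The globin and late red cell list, at 2.45 in the controls, was at -0.06 and 0.13.

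**Figure D5:**
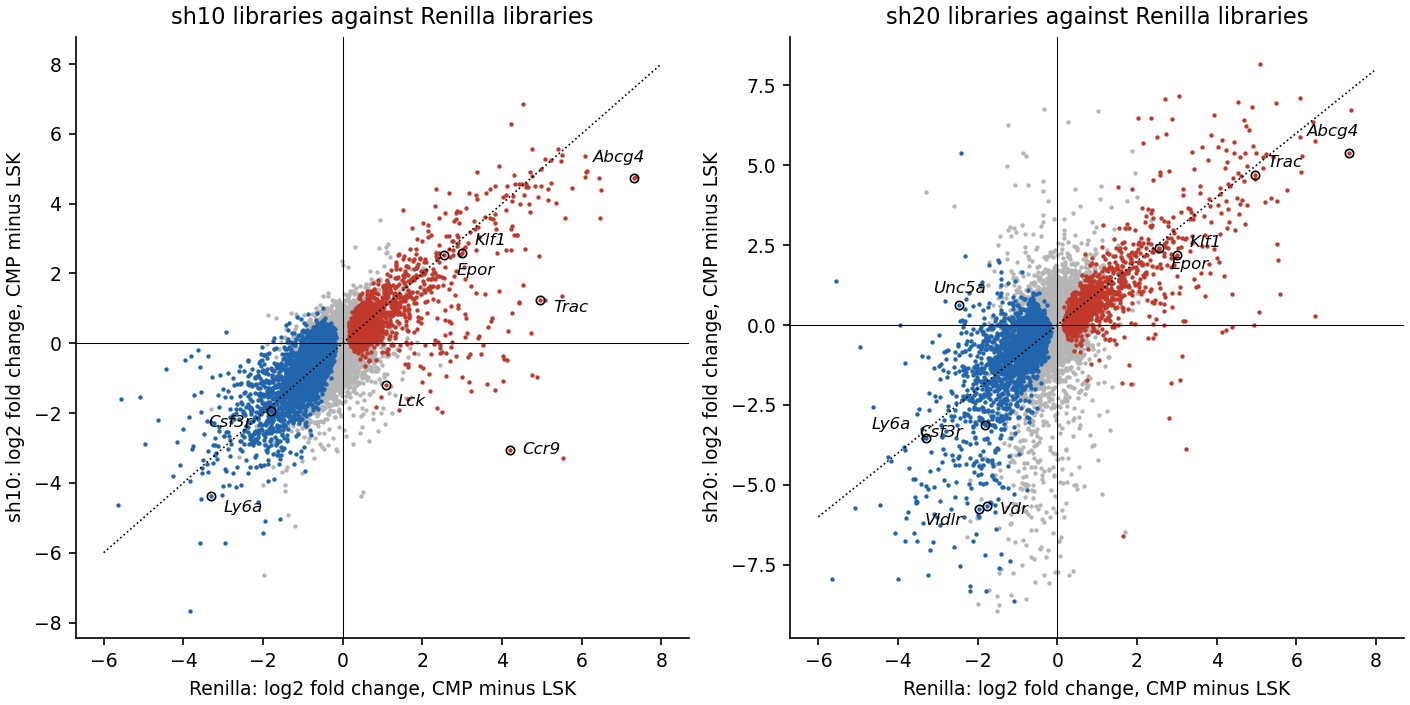
Log2 fold change, CMP minus LSK, of each gene in the sh10 libraries (left) and in the sh20 libraries (right) against that in the *Renilla* libraries, with the same colours as before and a dotted line of equal change. *Klf1* and *Epor* lie near the line in both panels, *Ccr9* is at -3.06 with sh10, and *Vdr* and *Vldlr* are at -5.66 and -5.74 with sh20.

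A test of the difference between these comparisons called few genes, and both shRNAs were set against the same control libraries. With sh10, 3 of 15066 genes (0.0199%) differed from the controls in their CMP and LSK contrast, and 1169 had an unadjusted p under 0.05. Of the 3, 2 were called in the controls, namely *Ccr9*, at 4.20 there in the same fit and -3.06 with sh10 (adjusted p of the difference = 0.030), and *Lck*, at -1.20 with sh10, a difference of -2.30 (adjusted p of the difference = 0.043). Neither call was stable, since single libraries left out brought the adjusted p of the difference up to 0.12 for *Ccr9* and 0.16 for *Lck*. The T and NK cell list, 2.69 in the controls, had a median of -0.19 with sh10 and of 1.65 with sh20. With sh20, 88 genes (0.584%) differed, 72 of them to lower values in sh20. *Csf3r* was at -3.12 with sh20 (adjusted p of the difference = 0.0017), and *Vdr* and *Vldlr*, receptors of vitamin D and of very low density lipoprotein, were at -5.66 and -5.74 (adjusted p = 0.0047 and 0.0055). *Unc5a* went the other way, at -2.46 in the controls in the same fit and 0.61 with sh20 (adjusted p of the difference = 0.0025). It lies opposite *Hk3*, and reads where their exons overlap cannot be told apart. The sh20 libraries held 17174 to 18066 genes with a count, fewer than any control library, and the part of this in the calls was not tested. The count of 88 ranged from 3 to 474 over the other settings and reached 807 without CMP sh20 replicate C.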

How the data were processed

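RNA from the sorted cells was amplified with SMART-Seq v4, which does not mark strand, and sequenced by the authors. The authors aligned reads to mm10 with STAR, removed duplicates with Picard and deposited read counts per gene from HTSeq-count with GENCODE vM11, with default settings, which count by strand. Of the uniquely aligned reads, 52.1 to 53.8% were in no feature and 0.705 to 0.77% were ambiguous, and both were left out. Duplicate removal can limit counts of highly expressed genes, and 266 tested genes had over 0.5 counts per exonic base in the highest library.

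From these counts, the 8 *Renilla* libraries were fitted in edgeR 4.0.16 (R 4.3.3, limma 3.58.1) with TMM scaling, filterByExpr (minimum 10 counts, 15 in total), the quasi-likelihood test and Benjamini-Hochberg adjustment, and a gene was called at an FDR under 0.05. Log2 fold changes are CMP minus LSK with the standard error (SE), and CPM uses TMM-scaled totals. The difference between comparisons was tested as a contrast in 1 fit of 6 groups and 19 libraries. Replicates differed by more than counting noise (chi-square per degree of freedom 5.47 to 8.07), so all were kept. Alternatives were DESeq2 1.42.0, other scaling and filters, a covariate, a replicate block and leaving out libraries.

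The groups and the 30 gene lists were chosen with earlier results of these data known. Named genes are the 15 largest rises and 15 largest falls among genes averaging 50 counts or more whose groups did not overlap (68 genes with Gm symbols or pseudogenes were left out of the ranking), up to 6 called genes of each list by size, gate genes and transcription factors, the 5 genes of highest CPM and the 5 lncRNAs of largest change in each direction, genes the study discusses, and genes whose difference with an shRNA was called. *Alas1*, *Car2*, *Ccr2*, *Col4a1*, *Cpa3*, *Ctsg*, *Dntt*, *Elane*, *Ermap*, *Gzmb*, *Hmga2*, *Hoxa4*, *Ifngr1*, *Igkc*, *Ltf*, *Mpo*, *Mt2*, *Prg2*, *Prss34*, *Prtn3*, *Rhag*, *S100a8*, *Selp* and *Tfrc* were chosen after their values were seen. The authors' own table of comparisons was not used, and a few genes are not reported here.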

Additional observations from a re-analysis of the deposited data

Results flagged for a closer look

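The 368 groups of 4 libraries looked at cover 152 genes, the summed levels of 30 lists, the count totals and the numbers of genes detected. In 20 of them 1 library was far from the other 3 by Dixon's criterion, which is about the 1 in 20 that chance alone gives. In CMP replicate C, *Vwf* was at 449 CPM against 121 to 174 in the other CMP libraries, and *Cd5l* was at 14.7 CPM against 1.84 to 3.35. In LSK replicate C, the summed megakaryocyte and platelet list was at 3295 CPM against 2595 to 2607 in the other LSK libraries, the summed sort gate list was at 2623 CPM, *Car2* at 419.5 CPM, *Fech* at 146 CPM, *Lmo2* at 434.5 CPM and *Trim10* at 1.39 CPM, each the highest of its group. In LSK replicate D, *Igkc* was at 103 CPM against 0.202 to 3.17 in the others, *Cd3e* was at 2.64 CPM against 0, *Slc16a11* was at 32.7 CPM and the summed immediate early list was at 1377 CPM against 1065 to 1113. *Runx3* was lowest in LSK replicate B at 108 CPM, and *Ltf* was highest there at 103 CPM against 1.06 to 14.1. In CMP replicate D, *Ltf* was at 1.96 CPM against 0.234 to 0.527. In CMP replicate A, *Gfi1b* was highest at 318 CPM, *Lck* was highest at 126 CPM and *Gm19590* was lowest at 30.03 CPM. In CMP replicate B, *Hoxa10* was lowest at 17.2 CPM and *Mycn* at 172 CPM.

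The CMP and LSK contrast differed between an shRNA and the *Renilla* control in edgeR's test of the difference. With sh10 the log2 difference, sh10 minus *Renilla*, was -7.26 for *Ccr9* and -2.30 for *Lck*. With sh20 it was -1.34 for *Csf3r*, -3.92 for *Vdr*, -3.80 for *Vldlr*, -0.50 for *Ifngr1* and 3.08 for *Unc5a*. The call of *Ifngr1* was lost under upper quartile scaling (adjusted p = 0.066), with no filter (0.25), with at least 10 counts in every library (0.1), with the block (0.078), with the covariate (0.094) and without any of 14 single libraries (up to 0.12). The causes were not tested.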

How the results depend on the processing

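Of 224 called genes, named here or by the rule for named genes, 153 passed under every setting that tested them and none changed direction. Of the 224, 57 missed the threshold without LSK replicates B and D together, 36 with all 19 libraries in 1 fit, 34 with log2 total counts as a covariate and 15 to 30 with a single library left out. Leaving out single libraries gave 1753 to 2249 genes higher and 1830 to 2135 lower, of which 459 to 536 and 803 to 993 were at least 2-fold. Without LSK replicates B and D, chosen after the neutrophil genes were seen, the counts were 1299 and 1367, and all 19 libraries in 1 fit gave 1316 lower. At least 2-fold rises numbered 759 and at least 2-fold falls 1274 with no filter on low counts. With at least 10 counts in every library they numbered 280 and 602. The counts of genes that differed with an shRNA moved most. For sh10 they were 153 with no filter, 25 by DESeq2, 1 with the replicate block and 0 with log2 total counts as a covariate, where 1085 genes had an unadjusted p under 0.05, and 0 to 6 with single libraries left out. For sh20 they were 474, 296, 53 and 18 under these settings, 3 with at least 10 counts in every library, and 45 to 807 with single libraries left out, where the 1 library remaining in an arm is assumed to vary like the other groups. The cause was not tested.

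With the replicate letter as a block the counts were 2040 higher and 2324 lower. Same-letter libraries correlated in their deviations from the group means with r = 0.025 to 0.134, other pairs with -0.081 to 0.021, and each library correlated best with its own letter, a hint from the data and not from the design, so the letters were not treated as pairs. Depth limits genes near absence in 1 group, such as *Abcg4*, and duplicate removal may limit the most abundant ones.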

Other observations

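Of 26 adhesion and homing genes tested, 10 were lower and 2 higher in CMPs, where 18% and 16.5% of all genes tested were, with a median log2 fold change of -0.14. *Emcn*, an endothelial and stem cell sialomucin, was at 9.48, 4.79, 5.84 and 7.83 CPM in CMPs and 36.4, 41.8, 17.7 and 23.7 CPM in LSK cells (log2 fold change -2.10 ± 0.32, adjusted p = 0.00053 in edgeR). *Robo4*, a receptor that anchors stem cells in the marrow, had 31, 63, 52 and 90 counts in CMPs and 215, 281, 117 and 184 in LSK cells (log2 fold change -1.61 ± 0.28, adjusted p = 0.0011, a call lost with all 19 libraries in 1 fit). *Alcam*, an adhesion molecule of the immunoglobulin family, was at 1.32, 1.68, 2.34 and 5.14 CPM in CMPs and 11.9, 15.1, 13.6 and 16.5 CPM in LSK cells (log2 fold change -2.43 ± 0.40). In all of these genes the groups did not overlap.

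Among S phase genes, *Cdc6*, which loads the replicative helicase, was at 226, 208, 180.4 and 174 CPM in CMPs and 147, 142, 114 and 134 CPM in LSK cells (log2 fold change 0.55 ± 0.10, adjusted p = 0.0019 in edgeR). Among ribosome biogenesis genes, *Bysl* was at 224, 208, 185 and 185 CPM in CMPs and 119.8, 107, 103 and 120.1 CPM in LSK cells (log2 fold change 0.83 ± 0.09, adjusted p = 5.8e-05). *Cdk6*, the G1 kinase that stem and progenitor cells use to leave quiescence, was at 290.1, 349.8, 347 and 267 CPM in CMPs and 261, 259, 292 and 363 CPM in LSK cells (log2 fold change 0.09 ± 0.12, adjusted p = 0.57).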
